A study of Mus musculus with 15 samples.

Results

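The Frizzled receptors are encoded by 10 mouse genes, Fzd1 to Fzd10. They were picked by gene symbol from the tables of read counts, which list 78298 genes, and all 10 were found. In these organoids the Frizzled family was expressed mainly through Fzd5 in budding cultures, whereas Fzd6 and Fzd3 rose in the spheroids of both SOX9 lines. Fzd3 was almost silent in the control and already higher in SOX9-Halo budding cultures. In SOX9-Halo spheroids Fzd1 was close to 0, Fzd5 and Fzd8 fell, and Fzd6 became the most abundant member.

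Frizzled receptors are multi-pass membrane proteins that bind Wnt ligands through a cysteine-rich domain outside the cell. Inside the cell they recruit Dishevelled, and together with the co-receptors Lrp5 and Lrp6 they protect beta-catenin from degradation, so that it can act with TCF/LEF factors on target genes. Some members also act without beta-catenin, in planar cell polarity, which orients cells within the plane of a tissue. In the crypts of the small intestine Wnt signalling maintains stem cells, and the ubiquitin ligases Rnf43 and Znrf3 remove Frizzled proteins from the cell surface unless R-spondins and their Lgr receptors hold them back.

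Poly-A RNA was sequenced from small intestinal organoids derived from crypts of C57BL/6J wild-type adult female mice, in 5 conditions of 3 libraries each. Every line carried a lentiviral transgene driven by the ubiquitous L30 promoter and was selected with puromycin. The control, Halo-NLS, carried a HaloTag with a nuclear localization signal. SOX9-Halo_budding and SOX9-mEGFP_budding carried mouse Sox9 fused to the HaloTag or to the green fluorescent protein mEGFP and kept the budding shape of intestinal organoids. SOX9-Halo_spheroid and SOX9-mEGFP_spheroid were the same 2 lines later in culture, when they grew as round spheroids. Each then also carried a fluorescently tagged histone H2B from a second transduction. Per the methods of the study, this was selected with Zeocin in the SOX9-Halo line and with Geneticin in the SOX9-mEGFP line. The state, the added transgene with its selection and the time in culture therefore cannot be told apart. In the paper's order of passage and shape Halo-NLS came first, and SOX9-Halo cultures came after the SOX9-mEGFP cultures of the same state. The control and each SOX9 tag were represented by 1 selected population each. In comparisons with Halo-NLS the Sox9 transgene, the selected population and the time in culture therefore cannot be told apart either. Per the methods of the study, replicates were taken within 2 passages of the passage shown for each condition. The labels do not say whether replicates came from separate animals or cultures, so p-values measure the spread between these libraries.

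Between 28062722 and 40559766 reads per library were counted on genes. Halo-NLS replicate 3 stood apart, with 40375 genes that had a count against a median of 28352 over the 15 libraries, and with the highest mean level of 1155 olfactory receptor genes, which should be silent here (0.0174 RPKM, reads per kb of exon and per 1000000 reads, against a median of 0.00239 RPKM). Sox9, whose reads come from the endogenous gene and from the transgene alike, was higher than in Halo-NLS in all 4 SOX9 conditions, by 3.56 to 4.95 on the log2 scale. Of 10 small intestinal epithelial markers, all 10 were lower in SOX9-Halo_spheroid and 7 in SOX9-mEGFP_spheroid than in the budding cultures of the same line. Their summed level was 114.7 to 150.4 CPM (counts per 1000000) in SOX9-Halo_spheroid, 888 to 1117 CPM in SOX9-mEGFP_spheroid and 3073 to 7730 CPM in the 3 budding conditions, so that the labelled tissue was barely marked in SOX9-Halo spheroids. General epithelial markers stayed high, between 4862 and 11340 CPM in sum. Beside these, markers of immune cells (0.684 to 8.15 CPM) and of neural and glial cells (2.98 to 37.7 CPM) were low, but single markers changed with condition. From budding to spheroid, the glial marker S100b went from 24.5 to 0.515 CPM in the SOX9-Halo line and from 6.63 to 24.3 CPM in the SOX9-mEGFP line. The immune marker Cd68 went from 1.15 to 4.94 CPM and from 1.41 to 4.85 CPM. Since these are bulk libraries, a lower level can come from fewer cells of a type or from less RNA per cell.

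The family falls into groups of related sequence: Fzd1, Fzd2 and Fzd7; Fzd5 and Fzd8; Fzd3 and Fzd6; and Fzd4, Fzd9 and Fzd10. The coding stretch around the KTxxxW motif, the site just inside the membrane through which Frizzled proteins bind Dishevelled, is shown because it sets apart Fzd3 and Fzd6, the pair that rose in spheroids. In the lines that follow, the 18 bases of the motif are in capitals. They were read in the coding direction from the GRCm39 build, at chr1:59523760-59523789 (plus strand) for Fzd7, chr5:4805700-4805729 (minus strand) for Fzd1, chr11:102497193-102497222 (plus) for Fzd2, chr1:64774164-64774193 (minus) for Fzd5, chr7:89057443-89057472 (plus) for Fzd4, chr14:65449550-65449579 (minus) for Fzd3 and chr15:38897338-38897367 (plus) for Fzd6, each within a coding exon.
Fzd7: tcgggcAAGACCCTGCAGTCATGGcgtcgc
Fzd1: tccggcAAGACACTGAATTCCTGGaggaag
Fzd2: tccggcAAGACACTGCACTCGTGGaggaag
Fzd5: tccggcAAGACTCTGGAGTCTTGGcggcgg
Fzd4: tctgccAAAACTCTTCACACGTGGcaaaag
Fzd3: agcaaaAAGACATGCTTTGAATGGgccagt
Fzd6: agcaaaAAGACGTGCACAGAATGGgccggg
Fzd3 and Fzd6 each differed from Fzd7 at 9 of the 18 bases, whereas the other 4 shown differed at 3 to 6. The motif was present once in every member, and the coding sequence went on after it for 159 codons in Fzd3 and 206 in Fzd6, against 17 to 74 in the other members. Similar as the genes are, their reads can be told apart, because the longest run of identical bases shared by transcripts of any pair of members was 47 bases (Fzd1 with Fzd2 and with Fzd7), and the sequenced reads were 150 bases long. Part of the exon sequence overlaps other genes, and reads there were dropped by the authors' counting: 18.1% of exon bases for Fzd5, 13.3% for Fzd6, 12% for Fzd7, 30.6% for Fzd10 and at most 4.18% for the others.

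Levels were first compared between members per length, in RPKM. The 10 genes summed to 15.6 ± 2.77 RPKM (SD, n = 3) in Halo-NLS, 30 ± 1.96 in SOX9-mEGFP_budding, 31.7 ± 5.69 in SOX9-Halo_budding, 26.6 ± 2.98 in SOX9-mEGFP_spheroid and 27.6 ± 0.606 in SOX9-Halo_spheroid. Every Halo-NLS library (highest 18.4 RPKM) was below every SOX9 library (lowest 24.7 RPKM), while the ranges of the 4 SOX9 conditions overlapped. Its make-up differed between them.

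Fzd5 made up 53.4% ± 11.1 of the family sum in Halo-NLS, 48.9% ± 1.26 in SOX9-mEGFP_budding and 59.2% ± 0.910 in SOX9-Halo_budding, but 32.5% ± 1.09 in SOX9-mEGFP_spheroid and 15.2% ± 0.996 in SOX9-Halo_spheroid (SD, n = 3). Fzd6 went the other way. It made up 2.94% ± 0.756, 3.26% ± 0.529 and 3.49% ± 0.0599 in the same 3 budding conditions, 16.6% ± 2.06 in SOX9-mEGFP_spheroid and 37.7% ± 0.923 in SOX9-Halo_spheroid, where it was the largest share. Fzd7 kept a share between 15.9% and 22.2% in all 5 conditions. By mean share the order of the members in Halo-NLS was Fzd5, Fzd7, Fzd4, Fzd2, Fzd9, Fzd1, Fzd6, Fzd8, Fzd10 and Fzd3, and from Fzd4 to Fzd8 the ranges of neighbours overlapped. In SOX9-Halo_spheroid the order began with Fzd6, Fzd7, Fzd2 and Fzd5, and the shares of Fzd2 (13.8% to 18%) and Fzd5 (14% to 15.8%) overlapped between libraries.

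**Figure D1:**
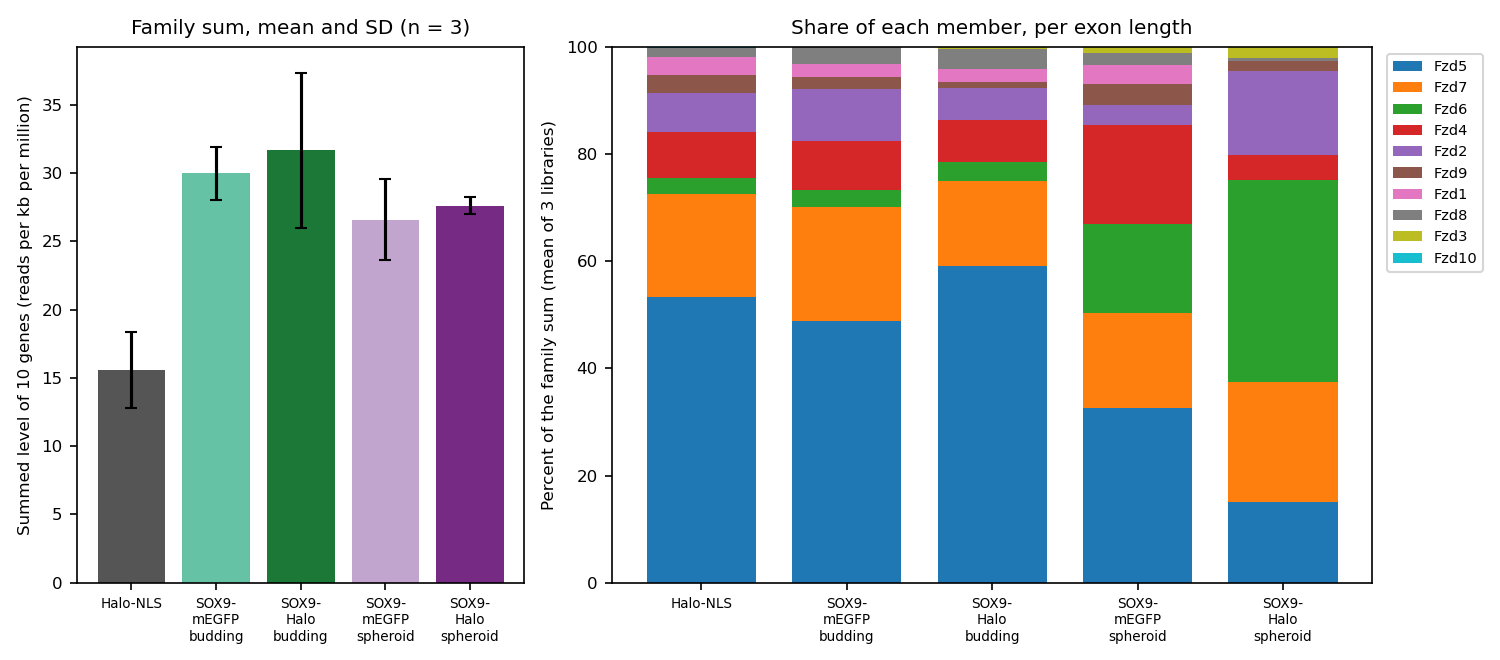
The left panel plots the summed level of the 10 Frizzled genes in RPKM, as the mean with SD of 3 libraries, and the right panel the mean share of each member in that sum, in percent, for the 5 conditions. Halo-NLS has the lowest sum, and the share of Fzd5 shrinks while that of Fzd6 grows from 3.49% in SOX9-Halo_budding to 37.7% in SOX9-Halo_spheroid.

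Within a gene, levels were followed across conditions as CPM after TMM scaling (edgeR's correction for library composition). Differences were tested with edgeR's quasi-likelihood test in 1 fit over the 15 libraries, with Benjamini-Hochberg adjustment over the 17560 genes tested, and to be called a gene had to have an adjusted p of 0.01 or less, to change by 1 or more on the log2 scale in either direction, and to average 10 or more normalized counts. Of the 10 members 9 were tested. Fzd10, with 0 to 2 counts per library, did not pass the filter on low counts.

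**Figure D2:**
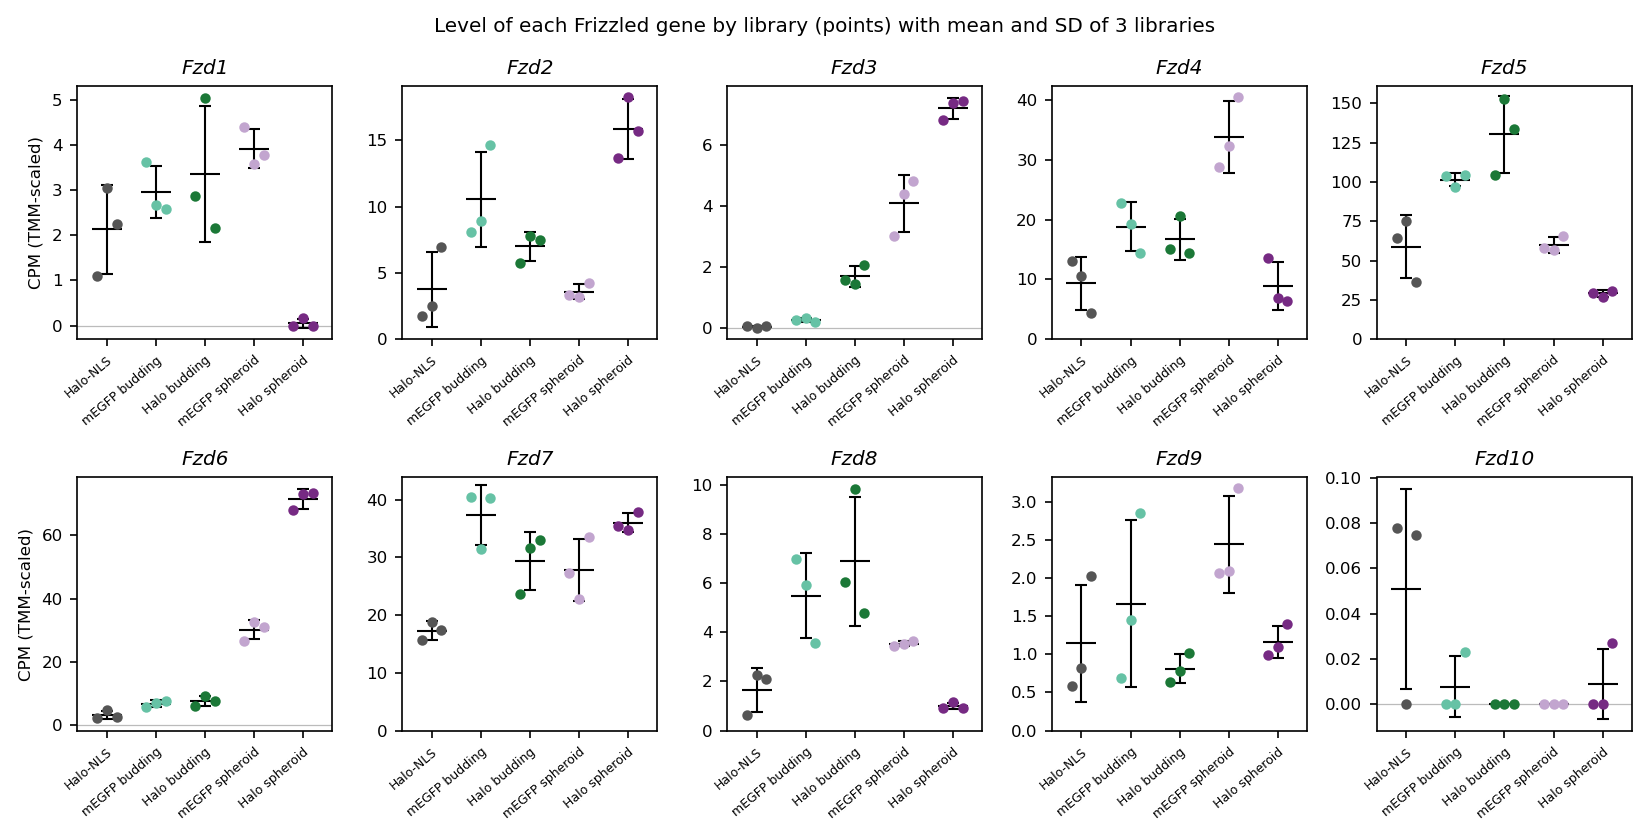
Each panel plots 1 Frizzled gene in TMM-scaled CPM, on an axis of its own, for the 15 libraries as points, with the mean and SD of the 3 libraries of each condition as bars. Fzd3 and Fzd6 are highest in both spheroid conditions, Fzd1 is close to 0 in SOX9-Halo_spheroid, and Fzd10 stays below 0.08 CPM throughout.

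Fzd3 and Fzd6, the receptors best known from planar cell polarity, for instance in the alignment of hair follicles and in axon guidance, were lowest in the control and highest in the spheroids. Fzd6 stood at 2.3, 4.69 and 2.59 CPM in replicates 1, 2 and 3 of Halo-NLS. It was at 5.54, 6.84 and 7.68 CPM in SOX9-mEGFP_budding and at 6.09, 9.08 and 7.65 CPM in SOX9-Halo_budding. In the spheroids it reached 26.7, 32.5 and 31.1 CPM in the SOX9-mEGFP line and 67.9, 73.2 and 73.4 CPM in the SOX9-Halo line. No Halo-NLS library reached any SOX9 library, the ranges of both budding SOX9 conditions overlapped, and both spheroid ranges lay above them without touching each other. Between budding and spheroid Fzd6 rose by 3.23 ± 0.273 on the log2 scale (SE, adjusted p = 2.36e-07, edgeR quasi-likelihood test with Benjamini-Hochberg adjustment) in the SOX9-Halo line and by 2.17 ± 0.263 (adjusted p = 1.90e-05) in the SOX9-mEGFP line. The rise was not called different between the lines (difference 1.06 ± 0.357, adjusted p = 0.0666), but between the spheroids themselves Fzd6 was 1.25 ± 0.253 higher in the SOX9-Halo line (adjusted p = 0.00188). That last call was lost without SOX9-mEGFP_spheroid replicate 1 (adjusted p = 0.0149). The median of all tested genes on chromosome 15, where Fzd6 lies, was -0.42 in the same comparison, opposite in sign to the difference of Fzd6. Against Halo-NLS that median was 0.37 in SOX9-mEGFP_budding and 0.36 in SOX9-mEGFP_spheroid, the same sign as Fzd6. It was -0.10 in SOX9-Halo_budding and -0.08 in SOX9-Halo_spheroid. The part of the chromosome in the changes of Fzd6 was not tested. Between SOX9-Halo_budding and Halo-NLS Fzd6 rose by 1.25 ± 0.262 (adjusted p = 0.00822), a call lost in 13 of the 15 fits that left out a library (highest adjusted p 0.0344).

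Fzd3 was nearly silent in the control, with 1, 0 and 1 counts in the 3 Halo-NLS libraries. This was a mean of 0.00193 RPKM, below the median over the same libraries of the mean level of olfactory receptor genes (0.00219 RPKM), so that Fzd3 was not detectable above background there at this depth. SOX9-mEGFP_budding held 7, 10 and 8 counts, and SOX9-Halo_budding 66, 49 and 71 counts. The spheroids held 114, 147 and 170 counts in the SOX9-mEGFP line and 193, 262 and 277 counts in the SOX9-Halo line. The 5 conditions thus formed a ladder without overlap, and in CPM the means were 0.0255, 0.250, 1.68, 4.07 and 7.21. Against the 2 counts of Halo-NLS the ratio of scaled counts was 9.9 (95% exact interval 2.47 to 86.3, counting error only) for SOX9-mEGFP_budding and 68.3 (18.7 to 568) for SOX9-Halo_budding. It was 165 (45.4 to 1367) for SOX9-mEGFP_spheroid and 296 (81.5 to 2445) for SOX9-Halo_spheroid.

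Where both sides had counts, the fitted changes of Fzd3 were well determined. Between budding and spheroid it rose by 2.10 ± 0.296 on the log2 scale in the SOX9-Halo line (adjusted p = 3.74e-05, edgeR) and by 4.03 ± 0.348 in the SOX9-mEGFP line (adjusted p = 8.78e-07). The difference between these rises was -1.93 ± 0.442 (adjusted p = 0.00812), and it was lost in 10 of the 15 fits that left out a library (highest adjusted p 0.0356). In budding cultures Fzd3 was 2.75 ± 0.344 higher in SOX9-Halo than in SOX9-mEGFP (adjusted p = 0.000499). In spheroids this gap had shrunk to 0.82 ± 0.283, which was not called (adjusted p = 0.0466). Even at its highest, Fzd3 made up 1.97% ± 0.0550 of the family sum per length, or 4.22% ± 0.159 without length correction.

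Fzd5 and Fzd8 form a pair of close relatives. Fzd5 is the Frizzled receptor that Paneth cells need to mature, and Fzd8 is known from early development. Fzd5 was the most abundant member in each of the 3 budding conditions and in SOX9-mEGFP_spheroid. It stood at 64.3, 75.4 and 36.4 CPM in Halo-NLS, 103.6, 96.6 and 104.3 CPM in SOX9-mEGFP_budding and 104.3, 152.9 and 133.5 CPM in SOX9-Halo_budding. The level was 57.6, 56.5 and 65.5 CPM in SOX9-mEGFP_spheroid and 29.3, 26.9 and 30.9 CPM in SOX9-Halo_spheroid. Both budding SOX9 conditions lay above the control, SOX9-mEGFP_spheroid fell inside the control's range, and SOX9-Halo_spheroid lay below every other library. From budding to spheroid Fzd5 fell by 2.17 on the log2 scale in the SOX9-Halo line (SE 0.240, adjusted p = 3.47e-06, edgeR), and its value in the SOX9-mEGFP line was -0.76 ± 0.231, which was not called (adjusted p = 0.0215). Lyz1, the lysozyme gene that marks Paneth cells, was at 380.8 ± 48.6 CPM in SOX9-Halo_budding and 0.505 ± 0.284 CPM in SOX9-Halo_spheroid, and at 559.7 ± 100.9 and 13.9 ± 8.31 CPM in the SOX9-mEGFP line, and the part of a loss of Paneth cells in the change of Fzd5 was not tested. The difference between the lines was -1.40 ± 0.327 (adjusted p = 0.00912), and it was lost in 12 of the 15 fits that left out a library (highest adjusted p 0.0304). Fzd5 lies on chromosome 1, whose tested genes had a median of -0.25 in that difference.

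Against Halo-NLS, Fzd5 rose by 1.15 ± 0.233 in SOX9-Halo_budding (adjusted p = 0.00693, edgeR), a call lost in 10 of the 15 fits that left out a library (highest adjusted p 0.0369), and fell by 1.02 in SOX9-Halo_spheroid (SE 0.233, adjusted p = 0.00221). The fall depended on the scaling and the libraries: with library sizes alone it was -0.73 (adjusted p = 0.0198), and it was lost without Halo-NLS replicate 1 or 2, SOX9-Halo_budding replicate 3 or SOX9-Halo_spheroid replicate 2 (values from -1.27 to -0.79 over the fits that left out a library). Between the spheroids Fzd5 was lower in the SOX9-Halo line, at -1.04 ± 0.233 (adjusted p = 0.00379), a call lost in 7 of the 15 fits that left out a library. In that comparison the genes on chromosome 1 had a median of -0.19.

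Fzd8 was a low-level member with the same order of condition means as Fzd5. It was at 0.623, 2.26 and 2.1 CPM in Halo-NLS, 6.99, 5.91 and 3.57 CPM in SOX9-mEGFP_budding and 6.02, 9.83 and 4.8 CPM in SOX9-Halo_budding. In the spheroids it was at 3.44, 3.52 and 3.63 CPM in the SOX9-mEGFP line and 0.918, 1.16 and 0.912 CPM in the SOX9-Halo line. The control and SOX9-Halo_spheroid overlapped, and all other libraries lay above both. Fzd8 rose by 2.05 ± 0.414 between Halo-NLS and SOX9-Halo_budding (adjusted p = 0.00690, edgeR), a call lost in 10 of the 15 fits that left out a library (highest adjusted p 0.0182), and fell by 2.78 from there to SOX9-Halo_spheroid (SE 0.428, adjusted p = 8.55e-05). In the SOX9-mEGFP line the value from budding to spheroid was -0.63 ± 0.394 (adjusted p = 0.278), and the difference between the lines, -2.15 ± 0.571, was not called (adjusted p = 0.0207). Fzd8 was also lower in SOX9-Halo_spheroid than in SOX9-mEGFP_spheroid (-1.82 ± 0.420, adjusted p = 0.00478), a call lost in 6 of the 15 fits that left out a library. It lies on chromosome 18, whose tested genes had a median of -0.60 in this comparison and of -0.65 in the difference between the lines. Against Halo-NLS that median was 0.36 in SOX9-Halo_budding, 0.30 in SOX9-mEGFP_budding, 0.81 in SOX9-mEGFP_spheroid and 0.19 in SOX9-Halo_spheroid. The part of the chromosome in the changes of Fzd8 was not tested.

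Fzd1, Fzd2 and Fzd7 are the members most often tied to beta-catenin signalling, and Fzd7 is the receptor of Wnt signals in Lgr5-positive stem cells of the small intestine. Fzd1 was low in 4 conditions and almost absent from the last. It stood at 1.09, 3.04 and 2.25 CPM in Halo-NLS, at 3.62, 2.66 and 2.58 CPM in SOX9-mEGFP_budding, at 2.87, 5.05 and 2.15 CPM in SOX9-Halo_budding and at 4.39, 3.58 and 3.78 CPM in SOX9-mEGFP_spheroid. SOX9-Halo_spheroid held 0, 6 and 0 counts, whereas no other library held fewer than 28. Among the first 4 conditions neighbours in the order of means overlapped, although every SOX9-mEGFP_spheroid library lay above every Halo-NLS library, and SOX9-Halo_spheroid lay far below all of them. The library with 6 counts was at 0.0403 RPKM, against 0.00239 RPKM for the mean of olfactory receptor genes in the same library.

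The ratio of scaled Fzd1 counts was 56 (95% exact interval 25.5 to 154, counting error only) between SOX9-Halo_budding and SOX9-Halo_spheroid, and 66.2 (30.2 to 182) between SOX9-mEGFP_spheroid and SOX9-Halo_spheroid. The fitted fall from budding to spheroid in the SOX9-Halo line was -5.74 ± 0.728 (adjusted p = 1.33e-05, edgeR), and the value in the SOX9-mEGFP line was 0.41 ± 0.499 (adjusted p = 0.623). The difference between the lines was -6.15 ± 0.894 (adjusted p = 0.000245) and was called in every fit that left out a library. Without SOX9-Halo_spheroid replicate 2, the only library of its condition with counts, the fitted fall was -9.84 and the difference -10.2. Fzd1 is a single exon gene of the minus strand at chr5:4803839-4808035 (GRCm39), with no overlapping gene.

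The 10 mesenchymal markers summed to 8.24 to 9.47 CPM in Halo-NLS, 3.02 to 7.42 CPM in SOX9-mEGFP_budding, 2.06 to 9.28 CPM in SOX9-Halo_budding, 1.25 to 1.77 CPM in SOX9-mEGFP_spheroid and 1.18 to 2.08 CPM in SOX9-Halo_spheroid, with Dcn and Lum at 0 counts in both spheroid conditions and Col3a1 at 0 in SOX9-Halo_spheroid. The sums of both spheroid conditions overlapped each other and lay below all Halo-NLS libraries, and the part of mesenchymal cells in the change of Fzd1 was not tested.

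The values of Fzd2 went in opposite directions in the SOX9 lines. It was at 1.75, 2.53 and 6.97 CPM in Halo-NLS, 8.07, 8.88 and 14.7 CPM in SOX9-mEGFP_budding and 5.76, 7.8 and 7.47 CPM in SOX9-Halo_budding. In the spheroids it was at 3.36, 3.16 and 4.23 CPM in the SOX9-mEGFP line and at 13.7, 18.2 and 15.7 CPM in the SOX9-Halo line. The spheroids of the SOX9-Halo line lay above their budding cultures and those of the SOX9-mEGFP line below theirs, and Halo-NLS overlapped SOX9-Halo_budding and SOX9-mEGFP_spheroid because of its replicate 3. In the SOX9-Halo line the value between budding and spheroid was 1.18 ± 0.401, not called (adjusted p = 0.0281, edgeR), but with the replicate number as a block, which pairs these libraries, it was 1.19 and called (adjusted p = 0.00781). In the SOX9-mEGFP line Fzd2 fell by 1.56 (SE 0.408, adjusted p = 0.00919), a call close to the threshold that was lost in 12 of the 15 fits that left out a library (highest adjusted p 0.0392). The difference between the lines was 2.74 ± 0.572 (adjusted p = 0.00433), lost in 6 of the 15 (highest adjusted p 0.0161). Between the spheroids Fzd2 was 2.15 ± 0.414 higher in the SOX9-Halo line (adjusted p = 0.00128), and against Halo-NLS it was 2.08 ± 0.415 higher there (adjusted p = 0.000758) or 2.88 without Halo-NLS replicate 3.

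Fzd7 was the steadiest of the abundant members. It was at 15.6, 18.8 and 17.4 CPM in Halo-NLS, 40.4, 31.4 and 40.3 CPM in SOX9-mEGFP_budding and 23.6, 31.6 and 32.9 CPM in SOX9-Halo_budding. It was at 27.3, 22.7 and 33.5 CPM in SOX9-mEGFP_spheroid and 35.4, 34.8 and 37.9 CPM in SOX9-Halo_spheroid. Every SOX9 library was above every Halo-NLS library, and the SOX9 conditions overlapped except for SOX9-Halo_spheroid, whose libraries lay above those of SOX9-Halo_budding and SOX9-mEGFP_spheroid. Against Halo-NLS the rise was called in SOX9-mEGFP_budding (1.11 ± 0.203, adjusted p = 0.00404, edgeR) and in SOX9-Halo_spheroid (1.06 ± 0.203, adjusted p = 0.000545). The first call was lost without Halo-NLS replicate 2 or 3 or SOX9-mEGFP_budding replicate 1 or 3 (highest adjusted p 0.0195), and the second without Halo-NLS replicate 1 or SOX9-Halo_spheroid replicate 3, where the value fell just below 1. In SOX9-Halo_budding the value was 0.76 ± 0.202 (adjusted p = 0.0209) and in SOX9-mEGFP_spheroid 0.69 ± 0.201 (adjusted p = 0.0114). Between budding and spheroid it was 0.29 ± 0.2 in the SOX9-Halo line (adjusted p = 0.270) and -0.42 ± 0.2 in the SOX9-mEGFP line (adjusted p = 0.137).

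Fzd4, the receptor of the ligand Norrin as well as of Wnts, is best known from the blood vessels of the retina. It was at 13, 10.6 and 4.34 CPM in Halo-NLS, 22.7, 19.3 and 14.5 CPM in SOX9-mEGFP_budding and 15.1, 20.6 and 14.4 CPM in SOX9-Halo_budding. In the spheroids it was at 28.8, 32.2 and 40.6 CPM in the SOX9-mEGFP line and at 13.6, 6.79 and 6.38 CPM in the SOX9-Halo line. SOX9-mEGFP_spheroid lay above all other libraries, and SOX9-Halo_spheroid overlapped the control and lay below both budding SOX9 conditions. Between the spheroids Fzd4 was lower in the SOX9-Halo line (-1.93 ± 0.382, adjusted p = 0.00158, edgeR), and it lost this call without SOX9-Halo_spheroid replicate 2 or 3 (highest adjusted p 0.0133). Against Halo-NLS it was 1.86 ± 0.382 higher in SOX9-mEGFP_spheroid (adjusted p = 0.00111). From budding to spheroid the values were 0.85 ± 0.371 in the SOX9-mEGFP line (adjusted p = 0.109) and -0.91 ± 0.373 in the SOX9-Halo line (adjusted p = 0.0662), and their difference, -1.75 ± 0.526, was not called (adjusted p = 0.0395).

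Tspan12, a membrane protein that assists Fzd4 in Norrin signalling, was looked up after its values were seen. It was at 43.2 ± 4.25 CPM (SD, n = 3) in SOX9-mEGFP_spheroid, 24.9 ± 11.7 CPM in SOX9-Halo_budding and 0.656 ± 0.0584 CPM in SOX9-Halo_spheroid. Its fall in the SOX9-Halo line was -5.24 ± 0.499 (adjusted p = 7.45e-07, edgeR), and it differed from the change in the SOX9-mEGFP line by -5.62 ± 0.627 (adjusted p = 2.23e-05). The gene of Norrin, Ndp, had 0 counts in all 15 libraries, and 5 endothelial markers summed to at most 1.57 CPM in any library.

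Fzd9 and Fzd10 were the least informative members. Fzd9 ranged from 0.584 to 3.18 CPM, and it was called in no comparison (adjusted p from 0.0746 to 1.00, edgeR). Its libraries in SOX9-mEGFP_spheroid lay above all those of Halo-NLS, SOX9-Halo_budding and SOX9-Halo_spheroid and overlapped SOX9-mEGFP_budding. Its highest library was replicate 3 in each of the 5 conditions, at 2.02 CPM in Halo-NLS and 2.85 CPM in SOX9-mEGFP_budding, and with the replicate number as a block over 15 libraries Fzd9 was called higher in SOX9-mEGFP_spheroid than in Halo-NLS (1.22, adjusted p = 0.0066). Fzd10 held 2, 0 and 2 counts in Halo-NLS, 1 count in 1 library of SOX9-mEGFP_budding and of SOX9-Halo_spheroid, and 0 in the other conditions. No library exceeded the floor of 3 counts, so expression of Fzd10 was not detectable at this depth.

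Counted by comparison, SOX9-Halo_budding had 4 of the 9 tested members called higher than in Halo-NLS (Fzd3, Fzd5, Fzd6 and Fzd8), where 2.49% of all tested genes were called higher, and none lower, where 1.26% were. The median log2 difference of the 9 was 0.90, against 0.01 over all genes. SOX9-mEGFP_budding had 2 called higher (Fzd3 and Fzd7), where 1.99% of genes were, and none lower, where 0.763% were, with a median of 1.07 against 0.03. By edgeR at an unadjusted p below 0.05, 7 members were higher and 0 lower in each comparison, and DESeq2 called 4 higher and 0 lower in each. For SOX9-mEGFP_budding the DESeq2 calls were Fzd2, Fzd6, Fzd7 and Fzd8, without Fzd3. These counts were fragile. With only the conditions compared in the fit, edgeR called no member in either comparison, with 5 and 6 members at an unadjusted p below 0.05. When single libraries were left out the first count fell to 1 to 2 without Halo-NLS replicate 3, without any library of SOX9-Halo_budding or SOX9-Halo_spheroid, or without replicate 1 or 2 of SOX9-mEGFP_budding or SOX9-mEGFP_spheroid, and the second to 0 or 1 without Halo-NLS replicate 2 or 3 or any SOX9-mEGFP_budding library. Without Halo-NLS replicate 3, Fzd2 passed in both, at 1.7 (adjusted p = 0.00877) and 2.29 (adjusted p = 0.00135).

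From budding to spheroid, the SOX9-Halo line had 2 members called higher (Fzd3 and Fzd6), where 10.5% of genes were, and 3 called lower (Fzd1, Fzd5 and Fzd8), where 14.7% were, with a median of 0.29 against -0.08 over all genes. That fit held no replicate term, and a replicate block over the 15 libraries also called Fzd2 higher. The SOX9-mEGFP line had Fzd3 and Fzd6 likewise called higher, where 8.53% of genes were, and 1 called lower (Fzd2), where 7.86% were, with a median of 0.41 against -0.04. The interaction called the change of 1 member more positive in the SOX9-Halo line (Fzd2), where 1.81% of genes were, and of 3 more negative (Fzd1, Fzd3 and Fzd5), where 5.56% were. Only Fzd1 kept its interaction call in each of the 15 fits that left out a library, and the count fell to 1 or 2 without any 1 library of the SOX9-mEGFP line or of SOX9-Halo_spheroid, or without SOX9-Halo_budding replicate 1 or 3.

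**Figure D3:**
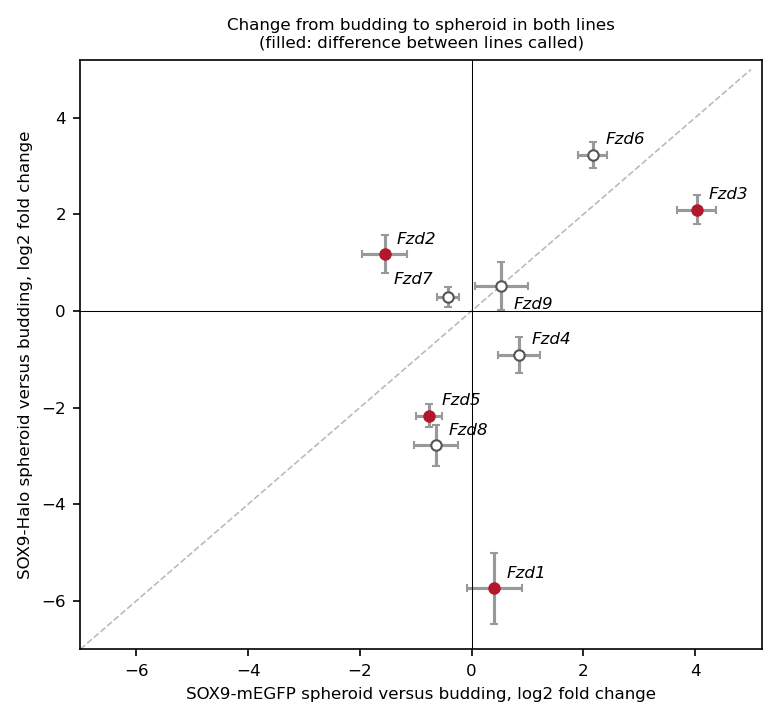
The points are the 9 tested Frizzled genes, with the fitted log2 fold change from budding to spheroid in the SOX9-mEGFP line on the x axis and in the SOX9-Halo line on the y axis, bars for the standard error and a dashed line for equal change. Filled points are the 4 genes whose change was called different between the lines, and Fzd1 lies farthest from the dashed line, at -5.74 against 0.41.

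Against Halo-NLS, SOX9-Halo_spheroid had 4 members called higher (Fzd2, Fzd3, Fzd6 and Fzd7), where 13.6% of genes were, and 2 lower (Fzd1 and Fzd5), where 15.2% were. SOX9-mEGFP_spheroid had 3 higher (Fzd3, Fzd4 and Fzd6), where 15.3% of genes were, and none lower, where 12.1% were. In the latter, 6 members were higher and 0 lower at an unadjusted p below 0.05 by edgeR, and DESeq2 called 3 higher and 0 lower. Both counts were the same without Halo-NLS replicate 3. All 4 comparisons with the control share the 3 Halo-NLS libraries. When counts were scaled by library size alone, the median of all genes in these 4 comparisons rose to between 0.27 and 0.31, and the share of higher calls among all calls went from 66.5% to 90.7%, from 72.3% to 85.1%, from 47.2% to 58.2% and from 55.8% to 69.0% for SOX9-Halo_budding, SOX9-mEGFP_budding, SOX9-Halo_spheroid and SOX9-mEGFP_spheroid.

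Between the lines, budding cultures differed in 1 member, Fzd3, called higher in SOX9-Halo, where 0.29% of genes were, and in none lower, where 0.165% were (1 member, Fzd9, at an unadjusted p below 0.05 by edgeR, and 0 called by DESeq2). That call was lost with only these conditions in the fit (2.78, adjusted p = 0.0256). Spheroids of the SOX9-Halo line had 2 members called higher than those of the SOX9-mEGFP line (Fzd2 and Fzd6), where 3.59% of genes were, and 4 lower (Fzd1, Fzd4, Fzd5 and Fzd8), where 9.56% were. The count of 6 fell to 3 without SOX9-Halo_spheroid replicate 2 or 3 or SOX9-mEGFP_spheroid replicate 1.

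**Figure D4:**
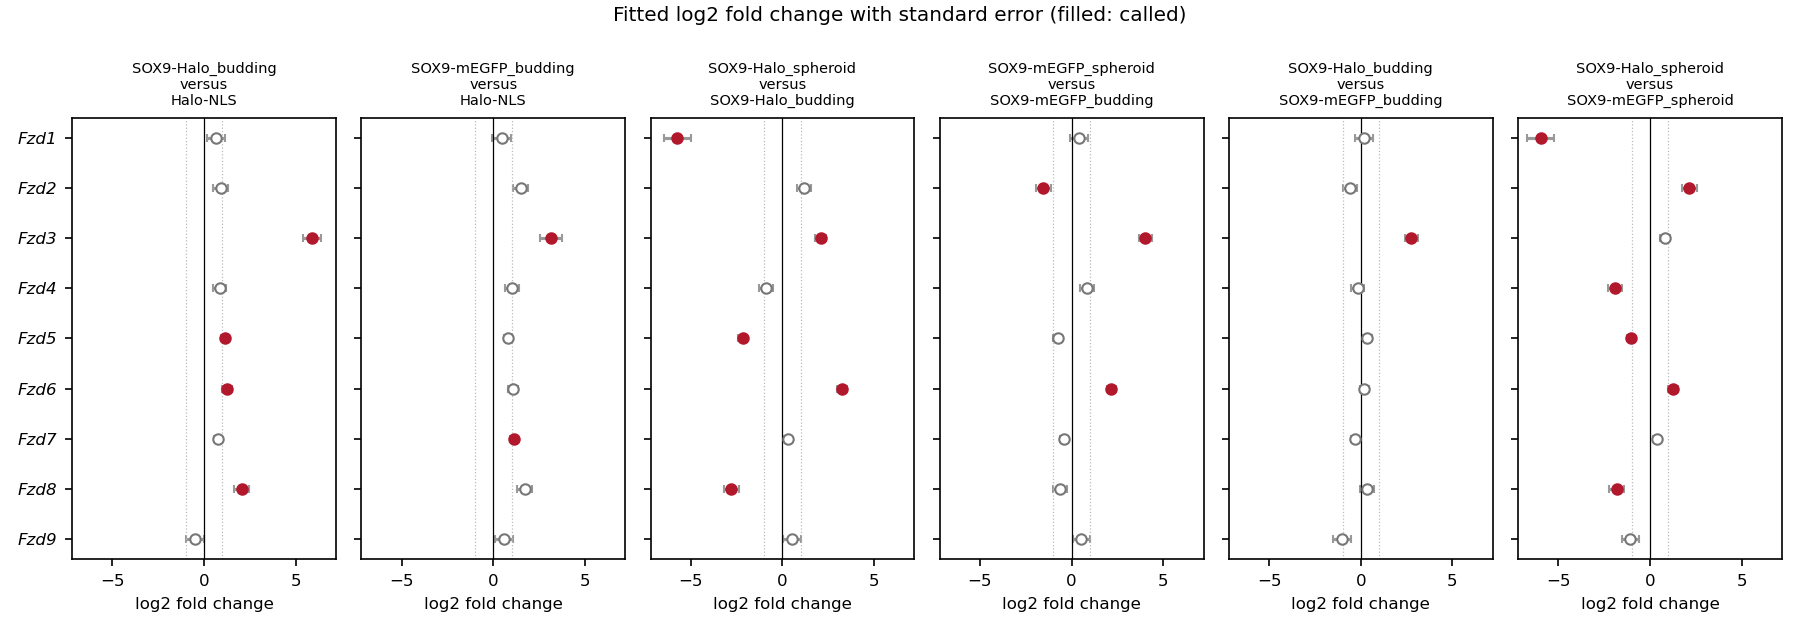
Each panel is 1 comparison and each row 1 of the 9 tested Frizzled genes, with the fitted log2 fold change on the x axis, the standard error as a bar, dotted lines at a log2 fold change of 1 in either direction, and called genes filled. Fzd3 and Fzd6 are filled and positive in both budding-to-spheroid panels, and budding cultures of the lines differ in Fzd3 alone.

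Promoters were read from RefSeq (GRCm38.p6) for 6 of the members (Fzd1, Fzd4, Fzd5, Fzd7, Fzd9 and Fzd10), and those of the other members were not read. The 250 bases before the start of Fzd1 and of Fzd5 are printed, since these fell together in SOX9-Halo spheroids. They lie at chr5:4758217-4758466 and chr1:64737751-64738000, both on the minus strand, and capitals mark the letters CTTTG of the TCF/LEF motif on either strand.
Fzd1: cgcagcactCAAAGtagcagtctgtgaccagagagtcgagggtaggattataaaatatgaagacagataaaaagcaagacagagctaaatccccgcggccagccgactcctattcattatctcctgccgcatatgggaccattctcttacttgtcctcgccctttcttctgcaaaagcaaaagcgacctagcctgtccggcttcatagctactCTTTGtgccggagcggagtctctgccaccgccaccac
Fzd5: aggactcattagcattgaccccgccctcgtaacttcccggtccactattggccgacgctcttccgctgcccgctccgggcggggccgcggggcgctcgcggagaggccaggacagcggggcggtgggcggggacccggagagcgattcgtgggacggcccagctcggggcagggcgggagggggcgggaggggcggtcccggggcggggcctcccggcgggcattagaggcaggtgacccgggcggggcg
CTTTG was found in 48.6% of 32851 promoter windows of this length, and among the 6 members in Fzd1, which holds 2 matches, Fzd7 and Fzd10. The core of the SOX motif, ACAAT, was found in 27.7% of windows and among these 6 members in Fzd10 alone. The TEAD motif GGAATG was found in 12.6% of windows and in none of these 6 members. Both strands were searched, and in the windows printed only the TCF/LEF motif was found, in that of Fzd1.

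The rest of the Wnt pathway was read from gene lists that were drawn up with earlier results of these data known. Their counts from budding to spheroid stand beside shares of all tested genes of 10.5% (higher) and 14.7% (lower) for the SOX9-Halo line and of 8.53% and 7.86% for the SOX9-mEGFP line. Among 10 co-receptors and alternative Wnt receptors, 7 were tested, and in the SOX9-Halo line 1 was called higher and 4 lower in spheroids than in budding cultures, with a median of -1.90 against -0.08 over all genes. The co-receptor Lrp5 rose from 117.5 ± 48.2 to 517.7 ± 25.2 CPM (SD, n = 3), while Ror2, a receptor of Wnt5a, went from 34.2 ± 15 to 3.55 ± 1.26 CPM. In the SOX9-mEGFP line edgeR called 0 higher (1 at an unadjusted p below 0.05, 0 by DESeq2) and 2 lower, among them Smo, the Hedgehog signal transducer, which also belongs to the Frizzled class of receptors (11.5 ± 4.87 to 4.43 ± 0.964 CPM), and Ptk7, a Wnt co-receptor of planar cell polarity (0.314 ± 0.171 to 0.00881 ± 0.0153 CPM).

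Of 5 R-spondin receptors and Frizzled-directed ubiquitin ligases, 4 were tested. In the SOX9-Halo line Rnf43, which removes Frizzled proteins from the surface, was called higher in spheroids (63.9 ± 16.2 to 157.3 ± 36.7 CPM) and 2 were called lower, including Lgr4, an R-spondin receptor (87.5 ± 18.4 to 26.7 ± 3.21 CPM). In the SOX9-mEGFP line 0 genes of this list were called by edgeR or by DESeq2 and 1 was higher at an unadjusted p below 0.05 by edgeR, and Rnf43 went from 62.5 ± 5.58 to 91.9 ± 22 CPM (0.56 ± 0.256 on the log2 scale, adjusted p = 0.129).

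Of 21 genes for Wnt ligands and their secretion 11 were tested, and from budding to spheroid 6 of these had risen and 2 fallen in the SOX9-Halo line, against 4 and 2 in the SOX9-mEGFP line. Wnt7b was at 0.0079 ± 0.0137 CPM in SOX9-Halo_budding and 96.4 ± 9.71 CPM in SOX9-Halo_spheroid, and at 0.0688 ± 0.0611 CPM and 15.8 ± 2.21 CPM in the SOX9-mEGFP line. Wls, which carries Wnt proteins to the surface, rose from 44 ± 3.38 to 201 ± 44.5 CPM in the SOX9-Halo line and from 41.9 ± 4.92 to 145.2 ± 16.6 CPM in the SOX9-mEGFP line. Wnt3, the ligand made by Paneth cells and looked up after its counts were seen, had 628 counts in SOX9-Halo_budding and 0 in SOX9-Halo_spheroid, and 1273 and 15 counts in the SOX9-mEGFP line. Of 5 other secreted ligands only Rspo4 was tested. It was at 1.98 ± 0.702 CPM in Halo-NLS and at 0 counts in SOX9-Halo_spheroid.

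Of 18 antagonists 6 were tested. The SOX9-Halo line had 2 called higher and 1 lower, and the SOX9-mEGFP line 0 higher and 2 lower, where DESeq2 also called 0 higher and edgeR had 0 higher at an unadjusted p below 0.05. Notum, which inactivates Wnt proteins, rose from 0.618 ± 0.275 to 13.5 ± 2.36 CPM in the SOX9-Halo line. Apcdd1, a membrane inhibitor, fell in both, to 0.0207 ± 0.0184 CPM in SOX9-Halo_spheroid and 0.128 ± 0.0917 CPM in SOX9-mEGFP_spheroid, from 6.87 ± 1.46 and 13.9 ± 4.05 CPM. Shisa2, which holds Frizzled proteins back in the endoplasmic reticulum, fell in the SOX9-mEGFP line from 48.7 ± 21.4 to 11.5 ± 1.62 CPM. Of 16 tested genes for Dishevelled and the beta-catenin pathway, 1 was called higher in the SOX9-Halo line (Tcf7, 6.78 ± 3.28 to 24.9 ± 7.29 CPM) and 0 in the SOX9-mEGFP line by edgeR or DESeq2, with 2 higher and 2 lower at an unadjusted p below 0.05 by edgeR. Ctnnb1, the gene of beta-catenin, had a value of 0.17 ± 0.175 there (adjusted p = 0.538).

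Planar cell polarity, the process Fzd3 and Fzd6 are known for, had 14 tested genes of 15, of which in spheroids of the SOX9-Halo line 4 were called higher and 3 lower, and in those of the SOX9-mEGFP line 5 and 1. Vangl1 rose from 9.77 ± 3.79 to 54.5 ± 5.87 CPM and from 9.47 ± 1.9 to 32.1 ± 6.14 CPM, and Celsr1 from 0.906 ± 0.586 to 15.9 ± 3.9 CPM and from 1.84 ± 0.505 to 54.5 ± 23.9 CPM, in the SOX9-Halo and SOX9-mEGFP lines. Other core polarity genes, picked after their values were seen, fell in the SOX9-Halo line, with log2 fold changes of -5.66 for Vangl2 (adjusted p = 1.87e-08, edgeR) and -5.25 for Celsr3 (adjusted p = 0.000158). Of 14 Wnt target genes of the crypt, all tested, the SOX9-Halo line had 6 called higher and 2 lower and the SOX9-mEGFP line 1 and 0 (5 and 1 at an unadjusted p below 0.05 by edgeR, 1 and 0 called by DESeq2). Cd44, called higher in both, went from 35.6 ± 27.8 to 122.4 ± 18.8 CPM and from 36.8 ± 19.5 to 351.7 ± 91.9 CPM.

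The members' patterns over the 15 libraries are described by Pearson's r of log2 CPM, in which libraries share conditions, so that each r mostly reflects the 5 condition means. Fzd3 and Fzd6 had the highest r of any pair of members (0.896), followed by Fzd5 with Fzd8 (0.805), Fzd2 with Fzd7 (0.762) and Fzd1 with Fzd8 (0.760), and the lowest was between Fzd1 and Fzd6 (-0.614). Among 10987 genes that averaged 100 or more normalized counts, the most alike to Fzd6 were Fkbp9 (r = 0.986), Atp11a (0.983) and Enc1 (0.983), to Fzd5 Ddi2 (0.973), Camk1d (0.955) and Chd7 (0.953), and to Fzd4 Lpin2 (0.961), Nedd9 (0.95) and Ahcyl2 (0.949). Fzd7 was closest to Fhod1 (0.916), Igf1r (0.907) and Arhgap31 (0.890), Fzd8 to Nck2 (0.897), Scml4 (0.876) and Gng11 (0.872), and Fzd2 to Plaat3 (0.879), Tbc1d9 (0.867) and Epdr1 (0.859).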

How the data were processed

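Poly-A RNA from 15 organoid cultures (5 conditions of 3) was sequenced as 150-base read pairs. Per the submitters' processing notes and the methods of the study, the authors trimmed reads with cutadapt 4.5, kept uniquely mapped reads of a STAR alignment to GRCm39 and counted them per Ensembl gene with HTSeq 2.0.2 without regard to strand. They deposited whole-number counts per gene and library, so reads of a gene and of an antisense gene over the same bases cannot be told apart, and reads that hit more than 1 gene were dropped as ambiguous (9.65 to 13.6% of reads, with 1.83 to 6.09% on no gene, both left out of library sizes). Tables of the authors' own comparisons, which hold fold changes and p-values, and the authors' table of normalized counts were not used.

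Groups and replicate numbers came from the sample titles and genotypes. Counts were fitted with edgeR 4.0.16 (R 4.3.3, limma 3.58.1): TMM scaling, a filter on low counts that kept 17560 of 78298 genes, 1 quasi-likelihood fit over 15 libraries, 8 comparisons and the difference between the lines in the change from budding to spheroid, with Benjamini-Hochberg adjustment. A standard error is the size of the log2 fold change over the root of its F statistic. The common biological coefficient of variation was 0.302. The fit was tested on simulated counts with less spread than these data, for SOX9-Halo_spheroid against Halo-NLS alone. That test covered neither changed genes at very low counts nor the difference between the lines. Levels are CPM (counts per 1000000) after TMM scaling, or per kb of exon in the GENCODE M39 annotation (RPKM) where genes are compared. Intervals of ratios are exact binomial at 95% and cover counting error only. Figures and tables used Python 3.11.15 and matplotlib 3.10.9 (numpy 2.4.6, scipy 1.17.1, pandas 2.3.3).

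Named genes were all 10 members, the 2 most abundant called genes of each pathway list in each line's change from budding to spheroid (the most abundant gene where none was called), and the 3 genes with the highest Pearson's r to each member, both averaging 100 or more normalized counts. Wnt3, Tspan12, Vangl2 and Celsr3 were added after their values were seen. The members, lists and rules were chosen with earlier results of these data known. The main fit held no replicate term, and pairing entered only through the replicate block among the alternatives. Same-numbered replicates were counted as pairs where r of their deviations from the condition means passed a set minimum in all 3 numbers. This held only between SOX9-Halo_budding and SOX9-Halo_spheroid (r = 0.403, 0.234 and 0.345 over 11039 genes, against a mean of -0.171 for other numbers). Elsewhere single numbers deviated together more strongly, with r = 0.47, 0.817 and -0.0563 between Halo-NLS and SOX9-Halo_budding. Between SOX9-Halo_budding and SOX9-mEGFP_budding r was 0.0391, 0.357 and 0.74. Alternatives were RLE scaling, library sizes alone, no filter, other thresholds, only the conditions compared, a replicate block, DESeq2 1.42.0, each library left out and, added after seeing the data, exon lengths without bases shared with other genes.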

Additional observations from a re-analysis of the deposited data

Results flagged for a closer look

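For 4 Frizzled genes the SOX9 lines differed in how the gene changed from budding to spheroid, by the test of the difference itself (the interaction term of edgeR's quasi-likelihood fit, 3 libraries per condition). Fzd1 had a log2 difference of -6.15 (SOX9-Halo minus SOX9-mEGFP), with the 3 SOX9-Halo_spheroid libraries below all others. Fzd2 had a difference of 2.74, from 1.18 in the SOX9-Halo line and -1.56 in the SOX9-mEGFP line. Fzd3 rose in both, by less in the SOX9-Halo line, with a difference of -1.93, from a higher start. Fzd5 had a difference of -1.40. The lines also differ in the tag, in the further transgene with its selection and in the selected population. In the paper's order of time in culture and spheroid shape, each SOX9-mEGFP condition also comes before its SOX9-Halo counterpart. These differences cannot be told apart.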

How the results depend on the processing

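No log2 fold change of a called member changed sign under any alternative. Of 1942 values, 1746 kept their direction and side of the threshold, 126 were no longer called, 36 became called, and 34 that were not called changed sign. From budding to spheroid, Fzd1, Fzd3, Fzd5, Fzd6 and Fzd8 in the SOX9-Halo line and Fzd3 and Fzd6 in the SOX9-mEGFP line were called under every alternative run.

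The counts of called members between budding cultures and between them and the control did move. With only the conditions compared in the fit, by edgeR with or without the replicate block, they went from 4 to 0 (SOX9-Halo_budding against Halo-NLS, 5 or 7 of 9 members at an unadjusted p below 0.05, 4 called by DESeq2), from 2 to 0 (SOX9-mEGFP_budding against Halo-NLS, 6 of 8 members in both fits, 4 called by DESeq2) and from 1 to 0 (between budding SOX9 lines, 1 of 9 in both fits, 1 called by DESeq2). The count for SOX9-mEGFP_budding against Halo-NLS was 5 at an adjusted p of at most 0.05 and without the filter, and 4 with library sizes alone, with the replicate block over 15 libraries and by DESeq2. With single libraries left out the counts ranged from 1 to 4 and from 0 to 2 for the budding SOX9 cultures against Halo-NLS (SOX9-Halo, SOX9-mEGFP), from 5 to 6 and from 2 to 3 from budding to spheroid, from 4 to 6 and from 3 to 3 for spheroids against Halo-NLS, from 1 to 1 between budding lines, from 3 to 6 between spheroids and from 1 to 4 for the difference between the lines.

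The replicate block over 15 libraries gave 6 members in the SOX9-Halo line, with Fzd2 added, and 3 for the difference between the lines, with Fzd5 lost (adjusted p = 0.0116). With the block in the fit of the 4 SOX9 conditions alone that difference had 6 members called. The labels link replicates of different conditions only by number. In every condition replicate 2 had the fewest genes with a count, from 24214 in Halo-NLS to 26390 in SOX9-mEGFP_spheroid. Shares of the family sum depend on exon length: without length correction 24 of 50 moved by over 1 SD, and without bases shared with other genes 10 of 50. Depth limits Fzd3 in Halo-NLS, Fzd1 in SOX9-Halo_spheroid and Fzd10 throughout. The causes were not tested.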
